A study of Mus musculus with 8 samples.

Results

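The genes that build elastic fibres and their microfibrils split into a falling and a rising set when mouse cardiac fibroblasts were placed in osteogenic medium. Of 10 such genes, Fbn1 and Fbln2 were 10.1- and 9.21-fold lower after 14 days, Efemp1 and Fbln1 were 6.31- and 4.35-fold higher, and Fbn2, which had 8 reads at the start, rose. The 10 genes were Eln, Fbn1, Fbn2, Mfap4, Mfap5, Fbln1, Fbln2, Efemp1, Efemp2 and Fbln5. They were taken by symbol and all 10 were found among the 24015 gene symbols of the table. The cells were Cardiac Fibroblast cultures from wild type C57BL/6J mice, labelled 8 weeks of age. RNA was sequenced before the osteogenic differentiation medium was added (day 0) and again at days 7, 14 and 21 of culture in it. Each time has 2 libraries, 8 in all. No library came from cells kept for the same time without the medium, so an effect of the medium and an effect of days in culture cannot be told apart. The labels name neither the components of the medium nor the culture or animal behind each library, so the spread behind each p-value is that between 2 libraries of a time and may be technical.

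Elastic fibres give recoil to arteries, lung, skin and the heart wall. They form when cells lay tropoelastin, the product of Eln, onto a scaffold of microfibrils made chiefly of fibrillin, and lysyl oxidases then cross-link it. Short fibulins (Fbln5, Efemp1 and Efemp2) guide that deposition, long fibulins (Fbln1 and Fbln2) associate with the fibre and with basement membranes, and the microfibril-associated proteins Mfap4 and Mfap5 bind fibrillin or elastin. Microfibrils also hold latent TGF-beta and BMPs in the matrix.

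Sequence just upstream of the start is shown for the members with the widest ranges of means among those with a matched window, because these genes moved in opposite directions. The windows come from RefSeq on GRCm38.p6, from which 6 of the 10 members were matched. Eln, Fbn2, Mfap4 and Mfap5 had no matched window, and Fbn2 had the widest range of all (36.6-fold). Efemp2 and Fbln5 were matched but had narrower ranges and are not shown. Each line gives the 250 bases before an annotated start, 5′ to 3′, with matches to searched motifs in capitals. Fbn1 and Fbln2 had their lowest level on day 14, and Efemp1 and Fbln1 were higher at every later time than on day 0.
Fbn1, chr2:125506439-125506688, minus strand: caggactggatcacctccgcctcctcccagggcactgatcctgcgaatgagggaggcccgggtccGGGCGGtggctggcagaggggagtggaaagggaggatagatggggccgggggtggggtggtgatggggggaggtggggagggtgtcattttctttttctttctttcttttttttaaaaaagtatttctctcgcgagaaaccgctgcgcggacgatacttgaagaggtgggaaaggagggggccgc
Fbln2, chr6:91212514-91212763, plus strand: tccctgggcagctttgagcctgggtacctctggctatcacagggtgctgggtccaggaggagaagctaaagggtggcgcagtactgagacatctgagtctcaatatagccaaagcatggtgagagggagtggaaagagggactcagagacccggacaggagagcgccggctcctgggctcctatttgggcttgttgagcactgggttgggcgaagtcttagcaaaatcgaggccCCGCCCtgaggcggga
Efemp1, chr11:28852955-28853204, plus strand: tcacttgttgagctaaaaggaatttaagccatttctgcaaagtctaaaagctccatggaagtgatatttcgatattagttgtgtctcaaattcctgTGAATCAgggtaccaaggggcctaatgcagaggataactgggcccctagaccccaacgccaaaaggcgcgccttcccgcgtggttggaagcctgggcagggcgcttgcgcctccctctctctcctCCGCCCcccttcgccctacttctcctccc
Fbln1, chr15:85205699-85205948, plus strand: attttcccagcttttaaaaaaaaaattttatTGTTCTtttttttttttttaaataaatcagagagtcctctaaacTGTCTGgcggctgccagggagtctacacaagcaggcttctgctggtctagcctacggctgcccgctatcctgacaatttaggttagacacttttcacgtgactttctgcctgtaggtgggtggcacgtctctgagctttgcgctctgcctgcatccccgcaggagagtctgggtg
Motifs were searched on both strands: TATAAA for the TATA box, GGGCGG for the GC box, CCAAT for the box of that name, TGANTCA for AP-1 factors, AGAACA for the glucocorticoid receptor half-site, CAGACA for the SMAD element, GGAATG for TEAD factors and the CArG box. No 2 of these overlapped in the windows shown. The Fbn1, Fbln2 and Efemp1 windows each held 1 GC box, a motif found in 33.0% of 32536 such windows. The Efemp1 window also held 1 match to the letters TGANTCA, here TGAATCA. A match to TGANTCA was present in 6.73% of all windows. The Fbln1 window held 1 glucocorticoid receptor half-site, beginning 219 bases before the start (16.0% of all windows), and 1 SMAD element, beginning 175 bases before it (17.0%). Fbln1 has a second annotated start, whose window held 1 GC box and the same SMAD element. These are matches of letters and not measured binding.

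The values, called normalized counts, are a gene's reads after division by the size factor of the library. Libraries held 13399313 to 21883498 reads assigned to genes. Replicate libraries differed among the 10 members by 1.03- to 1.64-fold on day 0, 1.02- to 1.15-fold on day 7, 1.02- to 1.38-fold on day 14 and 1.04- to 1.91-fold on day 21. At day 21 all 10 members were higher in the second library, as were 52.7% of all tested genes. At day 14, 7 of 10 were higher in the first library, against 50.9% of all tested genes. All 9 fibroblast markers on a fixed list were detected, with a summed level of 556378 to 569870 normalized counts on day 0, 351946 to 372978 on day 7, 206033 to 266033 on day 14 and 347808 to 421436 on day 21. Most of that sum was Col1a1, Col1a2 and Col3a1, and by gene 5 of 9 were called higher and 3 lower than day 0 on day 7, 4 and 4 on day 14, and 5 and 3 on day 21. Myofibroblast and smooth muscle markers (7 genes) summed to 59591 to 62539 on day 0 and to between 10957 and 15032 at all later times, most of it Acta2 and Tagln. By gene, 1 of 7 was called higher and 5 lower than day 0 on days 7 and 14, and 1 and 6 on day 21. Myh11 went from 33.4 and 37.9 on day 0 to 104 and 125 on day 14. The 8 macrophage markers summed to 1096 to 1174 on day 0, 9257 to 11488 on day 7, 19916 to 37287 on day 14 and 19280 to 19648 on day 21, most of it Lyz2. By gene, all 8 were called higher than day 0 on days 7, 14 and 21. None of these 8 was at 0 throughout, and their part in the results was not tested. In such bulk samples fewer cells of a type and less RNA per cell cannot be told apart. Of the cardiomyocyte markers, Myh6 was at 0 in all 8 libraries and Actc1 was at most 3.92, whereas Tnnt2 went from 1207 and 1134 on day 0 to 22419 and 28771 on day 14, and stood at 10580 and 5849 on day 21. Adipocyte markers, mostly Fabp4, summed to 107 to 150.4 on day 0, 5940.3 to 7292 on day 14 and 2441 to 2580 on day 21. Osteoblast markers, mostly Spp1, summed to 2838 to 3171, 9993 to 11455 and 6463 to 9142 at those times, with Sp7 and Ibsp at 0 in all 8 libraries. By gene, 2 of the 7 osteoblast markers were called higher and 1 lower on day 14 than on day 0. On day 21, 3 were called higher than day 0 and 0 lower. Runx2 went from 324 and 244 on day 0 to 217 and 162 on day 14, and to 197 and 259 on day 21. Alpl went from 125 and 209 to 214 and 198 and then to 630 and 351 at those times. The part of these lists in the results was not tested.

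Most members differed from day 0 at every later time (limma on log2 values, adjusted over 13527 tested genes). At day 7, 4 members were higher (Fbn2, Efemp1, Fbln1 and Mfap4), 5 were lower (Eln, Fbn1, Fbln2, Fbln5 and Efemp2), and Mfap5 did not pass the test. That is 9 of 10 called where 55.4% of all tested genes were called, 27.5% higher and 27.9% lower. The members were chosen with earlier results of these data known, so such counts are a description and no test of the list. At day 14 all 10 were called, 5 higher and 5 lower, against 70.7% of tested genes (35.2% higher, 35.6% lower), with Mfap5 joining the higher set. At day 21, 5 were higher, 4 lower and Efemp2 was no longer called, against 59.4% (29.8% higher, 29.5% lower). The libraries of all 10 members were apart from those of day 0 at each later time, as were 83.2, 85.4 and 81.2% of all tested genes at days 7, 14 and 21. The median log2 fold change of the 10 was -0.34, 0.09 and 0.08 at days 7, 14 and 21, and that of all tested genes was -0.01, 0.00 and 0.00. A median near 0 thus joined members that moved far apart, from log2 -3.33 for Fbn1 to 3.97 for Fbn2 on day 14. Mfap4 on day 7 no longer passed at 0.38 when the first day 0 library was left out (adjusted p = 0.0610), or at 0.41 when the second of day 7 was (adjusted p = 0.0581), and the other 8 calls on day 7 were kept in every alternative tried, as were all 10 on day 14.

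**Figure D1:**
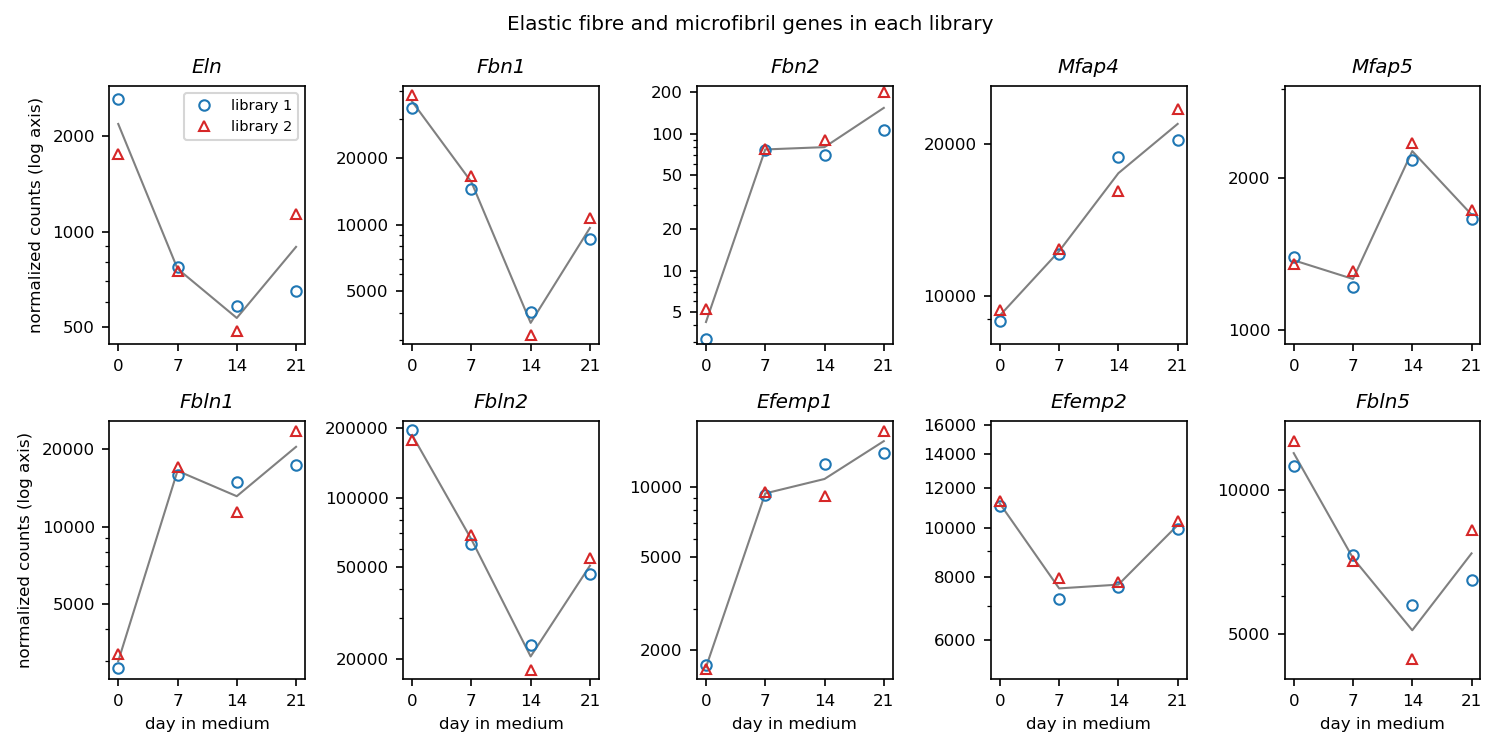
Normalized counts (log axis) of the 10 genes by day in the medium; circles are the first and triangles the second library of each time, and the line joins the means. Fbn1 and Fbln2 reach their lowest level on day 14 and rise in part by day 21, whereas Efemp1, Fbln1, Mfap4 and Fbn2 stay above day 0 at every later time.

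Elastin RNA fell and stayed low. Eln stood at 2608 and 1751 normalized counts in the 2 libraries of day 0, at 776 and 752 on day 7, 583 and 486 on day 14, and 650 and 1139 on day 21. Both day 0 libraries lay above all 6 later ones, although the day 0 libraries differed 1.49-fold and those of day 21 differed 1.75-fold from each other. Eln fell 2.80-fold by day 7 (log2 fold change -1.48 ± 0.23 SE, adjusted p = 0.000136), 4.01-fold by day 14 (log2 -2.00 ± 0.23, adjusted p = 6.24e-06), and was 2.48-fold lower on day 21 (log2 -1.31 ± 0.23, adjusted p = 0.000311). The step from day 7 to day 14 did not pass the test (log2 -0.52 ± 0.23, adjusted p = 0.0724).

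The fibrillins moved in opposite directions. Fbn1, the main fibrillin of adult microfibrils and the gene mutated in Marfan syndrome, stood at 33554 and 38493 normalized counts on day 0, 14526 and 16651 on day 7, 4025 and 3166 on day 14, and 8613 and 10712 on day 21. No 2 times overlapped. Fbn1 was 2.31-fold lower than day 0 on day 7 (log2 -1.21 ± 0.14, adjusted p = 1.64e-05), 10.1-fold lower on day 14 (log2 -3.33 ± 0.14, adjusted p = 1.25e-09) and 3.74-fold lower on day 21 (log2 -1.90 ± 0.14, adjusted p = 2.21e-07). Fbn2, the fibrillin most used in embryonic tissue, had 8 reads in all on day 0, or 3.18 and 5.23 normalized counts. It reached 75.6 and 77.6 on day 7, 69.2 and 90.0 on day 14, and 106 and 202 on day 21. Every later library lay above both day 0 libraries, and the ratio of reads, scaled by size factors, was 19.3 on day 7 (95% counting interval 9.60 to 45.5), 19.8 on day 14 (9.79 to 46.7) and 39.5 on day 21 (19.8 to 92.3). On the log2 scale with 1 count added, which understates changes of low genes, Fbn2 was higher by 3.93 ± 0.31 on day 7 (adjusted p = 5.05e-07), 3.97 ± 0.31 on day 14 (adjusted p = 2.52e-07) and 4.85 ± 0.31 on day 21 (adjusted p = 5.38e-08), and with 10 counts added it was higher by 2.61, 2.65 and 3.47. Both transcripts are long, with longest GENCODE M21 transcripts of 11971 bases for Fbn1 and 11041 bases for Fbn2, and over all genes the log2 change from day 0 to day 14 had a slope of -0.38 for each doubling in transcript length. After removal of a length and GC trend, the day 14 change was -2.55 for Fbn1 (adjusted p = 1.60e-09) and 4.73 for Fbn2 (adjusted p = 9.73e-08).

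The microfibril-associated genes rose, but on different schedules. Mfap4, which binds elastin and fibrillin, had 8916 and 9396 normalized counts on day 0, 12127 and 12413 on day 7, 18838 and 16161 on day 14, and 20355 and 23445 on day 21. The times did not overlap, and each was above the one before. Mfap4 was 1.34-fold higher than day 0 on day 7 (log2 0.42 ± 0.11, adjusted p = 0.00677), 1.91-fold on day 14 (log2 0.93 ± 0.11, adjusted p = 1.12e-05) and 2.39-fold on day 21 (log2 1.25 ± 0.11, adjusted p = 1.11e-06). Mfap5, also called MAGP2, a small glycoprotein that binds fibrillin, had 1393 and 1352 on day 0, 1213 and 1308 on day 7, 2170 and 2342 on day 14, and 1654 and 1726 on day 21. Day 14 was the peak, with both libraries above all the others. Mfap5 on day 7 did not pass the test (log2 -0.12 ± 0.09, adjusted p = 0.274) unless the length and GC trend was removed (log2 -0.22, adjusted p = 0.0257), on day 14 it was 1.64-fold higher than day 0 (log2 0.72 ± 0.09, adjusted p = 1.87e-05), and on day 21 it was 1.23-fold higher (log2 0.30 ± 0.09, adjusted p = 0.0135). Removal of that trend left day 14 changes of 0.49 for Mfap4 (adjusted p = 0.00364) and 0.38 for Mfap5 (adjusted p = 0.000942). The day 21 call of Mfap5 was lost after removal of the length and GC trend (log2 0.08, adjusted p = 0.366), without the first day 0 library (0.32, adjusted p = 0.0550), without the second day 0 library (0.28, adjusted p = 0.0923) and without the second day 21 library (0.27, adjusted p = 0.0524).

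Among the long fibulins Fbln2 fell as Fbln1 rose. Fbln2, a fibulin of vessel walls and of the embryonic heart valves, was by far the most abundant member at the start, at 195727 and 178104 normalized counts on day 0. It went to 63001 and 68680 on day 7, 22928 and 17916 on day 14, and 46395 and 54784 on day 21, with no overlap between any 2 times. Fbln2 was 2.84-fold lower than day 0 on day 7 (log2 -1.51 ± 0.15, adjusted p = 3.93e-06), 9.21-fold lower on day 14 (log2 -3.20 ± 0.15, adjusted p = 2.81e-09) and 3.70-fold lower on day 21 (log2 -1.89 ± 0.15, adjusted p = 3.89e-07). Fbln1, which binds fibronectin, elastin and laminin, stood at 2807 and 3188 on day 0 and at 15855 and 17108 on day 7, 14880.0 and 11378 on day 14, and 17421 and 23446 on day 21. All 6 later libraries lay above both of day 0. Fbln1 was 5.50-fold higher on day 7 (log2 2.46 ± 0.15, adjusted p = 6.15e-08), 4.35-fold on day 14 (log2 2.12 ± 0.15, adjusted p = 1.25e-07) and 6.75-fold on day 21 (log2 2.76 ± 0.15, adjusted p = 1.52e-08).

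The short fibulins, which share a role in elastin assembly, did not share a course. Efemp1 (fibulin-3), which also binds the protease inhibitor TIMP3, rose at all later times, from 1728 and 1657 normalized counts on day 0 to 9263 and 9488 on day 7, 12518 and 9098 on day 14, and 13958 and 17419 on day 21. Its rise over day 0 was 5.54-fold on day 7 (log2 2.47 ± 0.14, adjusted p = 3.21e-08), 6.31-fold on day 14 (log2 2.66 ± 0.14, adjusted p = 9.41e-09) and 9.21-fold on day 21 (log2 3.20 ± 0.14, adjusted p = 2.08e-09). Fbln5, which tethers tropoelastin to microfibrils and cells and whose loss in mice leaves elastic fibres disorganised, went from 11199 and 12679 on day 0 to 7312 and 7088 on day 7, 5751 and 4424 on day 14, and 6487 and 8245 on day 21. Both day 0 libraries exceeded all later ones. Fbln5 fell 1.66-fold by day 7 (log2 -0.73 ± 0.14, adjusted p = 0.000828), 2.36-fold by day 14 (log2 -1.24 ± 0.14, adjusted p = 6.33e-06) and was 1.63-fold lower on day 21 (log2 -0.70 ± 0.14, adjusted p = 0.000911). Efemp2 (fibulin-4), which recruits lysyl oxidase to tropoelastin and is needed for elastic fibres to form at all, moved least. It had 11030.3 and 11317 on day 0, 7234 and 7958 on day 7, 7638 and 7818 on day 14, and 9953 and 10307 on day 21. Efemp2 was 1.47-fold lower on day 7 (log2 -0.56 ± 0.09, adjusted p = 0.000288) and 1.45-fold lower on day 14 (log2 -0.53 ± 0.09, adjusted p = 0.000256), and on day 21 the difference did not pass the test (log2 -0.14 ± 0.09, adjusted p = 0.212) although both libraries were below those of day 0. After removal of the length and GC trend the day 21 difference of Efemp2 did pass (log2 -0.28, adjusted p = 0.00580).

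**Figure D2:**
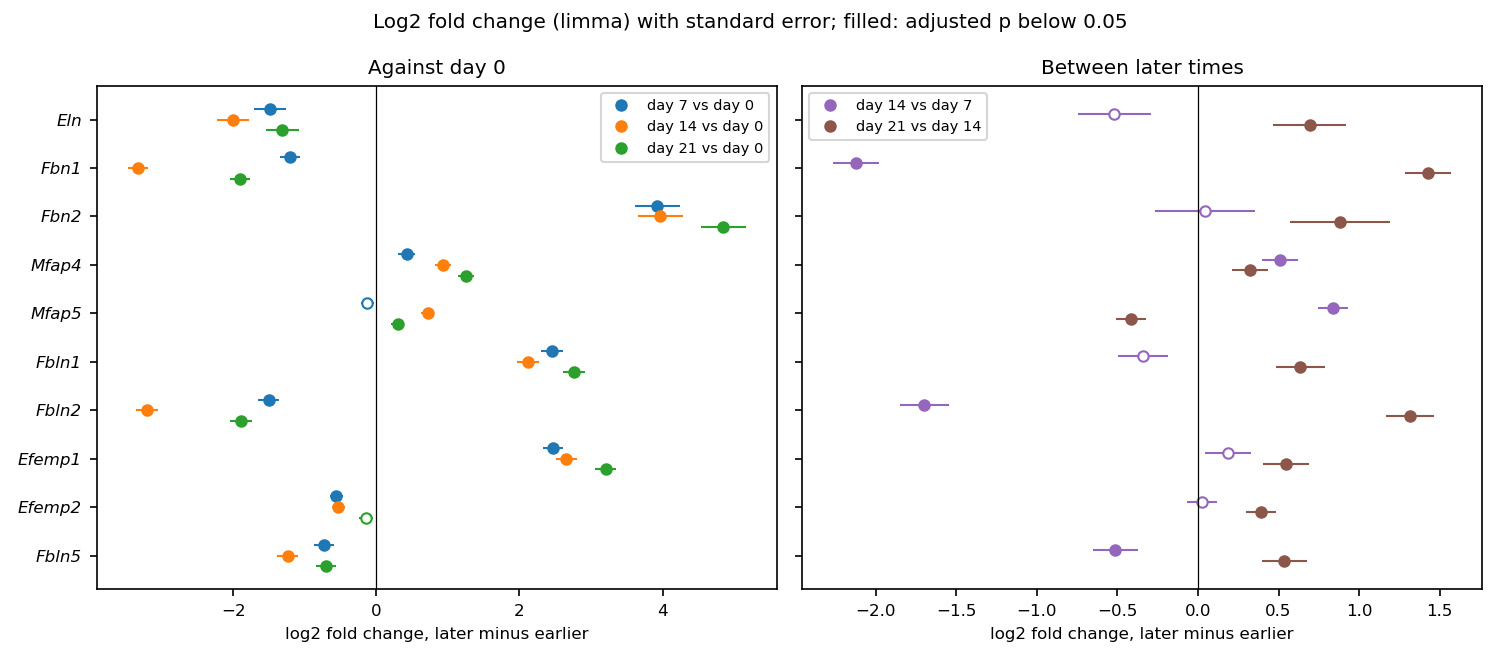
Log2 fold changes of the 10 genes with standard errors (limma fit over all 8 libraries), against day 0 on the left and between successive later times on the right; filled points have adjusted p below 0.05. Fbn1 and Fbln2 lie at -3.33 and -3.20 on day 14 and return in part by day 21. From day 14 to day 21, 9 of 10 members rose and Mfap5 fell. Of all tested genes 20.2% were called higher and 14.3% lower in that step. Not all of these member calls were kept in every alternative tried.

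From day 7 to day 14, 3 members fell (Fbn1, Fbln2 and Fbln5), 2 rose (Mfap4 and Mfap5) and 5 were not called, where 52.0% of all tested genes were called, 25.0% higher and 27.0% lower. The libraries of 7 members did not overlap, against 78.1% of tested genes. Fbn1 fell 4.36-fold (log2 -2.12 ± 0.14, adjusted p = 5.60e-06) and Fbln2 3.25-fold (log2 -1.70 ± 0.15, adjusted p = 1.93e-05), while Mfap5 rose 1.79-fold (log2 0.84 ± 0.09, adjusted p = 4.21e-05). Without the length and GC trend the step was -1.41 for Fbn1 (adjusted p = 1.15e-05), and the calls of Fbln5 (log2 -0.13, adjusted p = 0.340) and Mfap4 (log2 0.15, adjusted p = 0.343) were lost. The Fbln5 call was also lost without the first day 7 library (adjusted p = 0.0606) or the second day 14 library (adjusted p = 0.0727). For Fbn2 (log2 0.04 ± 0.31), Efemp1 (0.19 ± 0.14) and Efemp2 (0.03 ± 0.09) the libraries of days 7 and 14 overlapped. Efemp1 passed the test when the second day 14 library was left out (log2 0.42, adjusted p = 0.0174), and Fbln1 (log2 -0.34 ± 0.15) when the first day 14 library was (log2 -0.53) or either day 21 library (-0.34, adjusted p = 0.0449 and 0.0446). Eln passed without either day 21 library (log2 -0.52, adjusted p = 0.0218 and 0.0221).

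From day 14 to day 21, 9 members rose and Mfap5 fell, where 34.5% of all tested genes were called, 20.2% higher and 14.3% lower. The libraries of all 10 members were apart between these times, as were those of 66.6% of tested genes. Fbn1 rose 2.69-fold (log2 1.43 ± 0.14, adjusted p = 7.92e-05) and Fbln2 2.49-fold (log2 1.31 ± 0.15, adjusted p = 0.000206), Efemp2 1.31-fold (log2 0.39 ± 0.09, adjusted p = 0.00811), and Mfap5 fell 1.33-fold (log2 -0.42 ± 0.09, adjusted p = 0.00545). These 4 calls were kept in every alternative tried. The other 6, Eln (log2 0.69 ± 0.23), Fbn2 (0.88 ± 0.31), Efemp1 (0.55 ± 0.14), Fbln1 (0.64 ± 0.15), Fbln5 (0.54 ± 0.14) and Mfap4 (0.32 ± 0.11), were lost without the second day 14 library or without the second day 21 library, which left 4 members called in each case. Eln then stood at 0.56 (adjusted p = 0.153) and 0.29 (adjusted p = 0.336). Of 18 alternatives, 10 ended the call of Mfap4, 9 that of Fbn2 and 6 that of Eln, among them other scalings for Mfap4 and Fbn2 and DESeq2 for Eln. The call of Fbln5 was lost in 3, and those of Efemp1 and Fbln1 in 2 each. Day 21 did not return all members to their day 7 level. Against day 7, Fbn1 was 1.62-fold lower (log2 -0.70 ± 0.14, adjusted p = 0.0116), Mfap4 1.78-fold higher (log2 0.83 ± 0.11, adjusted p = 0.000861), Efemp1 1.66-fold higher (log2 0.73 ± 0.14, adjusted p = 0.00853), Mfap5 1.34-fold higher (log2 0.42 ± 0.09, adjusted p = 0.0153) and Efemp2 1.33-fold higher (log2 0.42 ± 0.09, adjusted p = 0.0183), so that 5 of 10 were called against 8.74% of all tested genes (5.46% higher, 3.28% lower). The libraries of 8 members did not overlap, against 58.8%. Of these 5 calls, that of Mfap4 was kept in every alternative, and leaving out either day 7 library left 1 member called.

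Levels of different genes can be set side by side only per length. Per kilobase of the longest annotated transcript Fbln2 led on day 0 and Mfap4 on day 14, but with the median annotated transcript Fbln2 led at all 4 times, with 30526 ± 5297 normalized counts per kb on day 14 (SD, n = 2) against 13153 ± 1422 for Mfap4. The median of the 9 annotated Fbln2 transcripts is only 669 bases and the longest 4786, against 1330.5 and 1770 for Mfap4. Which length fits the transcripts in these cells was not tested. At day 0 the order was Fbln2 (39055 ± 2604 normalized counts per kb, SD, n = 2), Mfap4 (5173 ± 192), Efemp2 (4242 ± 77.0), Fbn1 (3009 ± 292) and Fbln5 (2048 ± 180), then Efemp1 (831 ± 24.7), Fbln1 (819 ± 73.5), Eln (566 ± 157), Mfap5 (551 ± 11.8) and Fbn2 (0.381 ± 0.131). Efemp1 and Fbln1 overlapped, as did Eln and Mfap5, and the other neighbours in the order did not. At day 14 it was Mfap4 (9887 ± 1069), Efemp1 (5306 ± 1187), Fbln2 (4267 ± 740) and Fbln1 (3588 ± 677), with Efemp1 and Fbln2 overlapping, as did Fbln2 and Fbln1. Below them stood Efemp2 (2934 ± 48.3), Mfap5 (906 ± 48.8), Fbln5 (873 ± 161), Fbn1 (300.4 ± 50.7), Eln (139 ± 17.8) and Fbn2 (7.21 ± 1.33). At day 21 Mfap4 (12373 ± 1234) and Fbln2 (10570.3 ± 1239) led, ahead of Efemp1 (7702 ± 1201) and Fbln1 (5585 ± 1164), and Eln (232 ± 89.7) and Fbn2 (14.0 ± 6.19) were last. With the median transcript Fbln2 (75619 ± 8867) stood above Mfap4 (16460.2 ± 1642) on day 21, and 2, 5, 5 and 4 of 10 members kept their place in the order of days 0, 7, 14 and 21. Together the 10 genes held 1.54 and 1.47% of the library signal on day 0, 0.743 and 0.785% on day 7, 0.511 and 0.418% on day 14, and 0.672 and 0.797% on day 21.

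**Figure D3:**
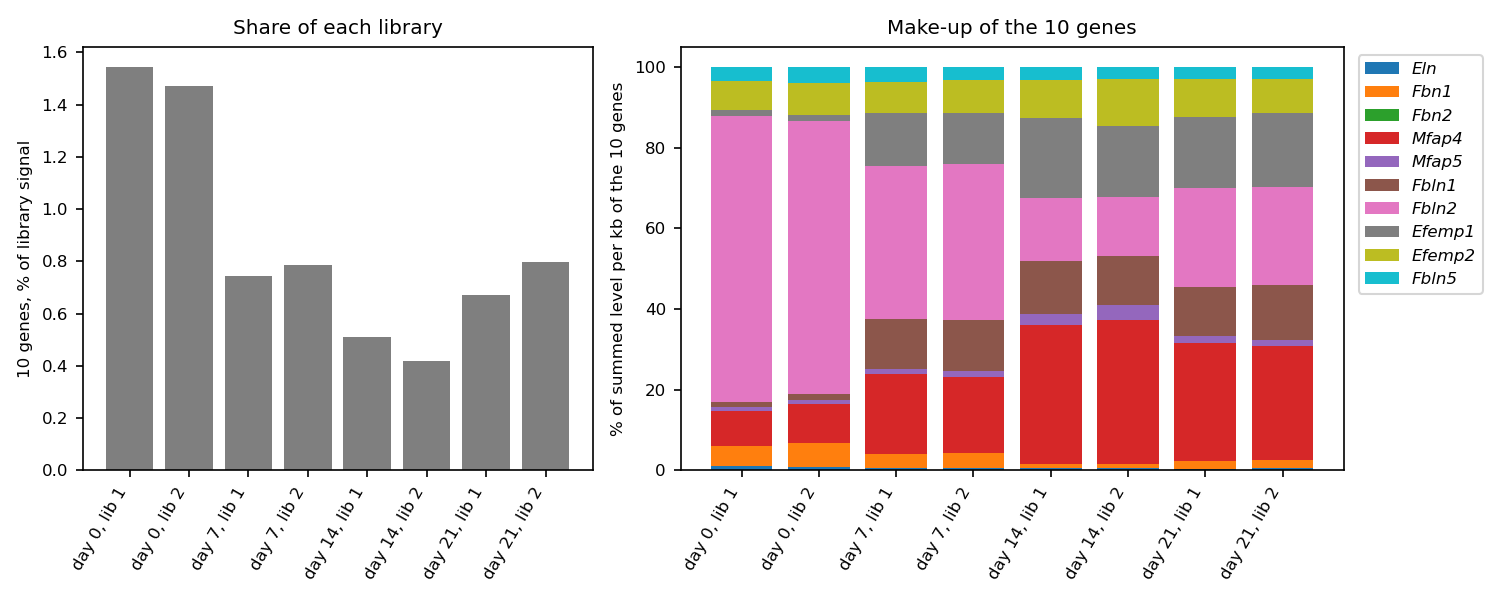
Left, share of each library's signal held by the 10 genes; right, share of each gene in their summed level per kb of longest transcript, in each of the 8 libraries. Fbln2 makes up 70.9 and 67.8% of the summed level on day 0 and 15.5 and 14.7% on day 14, while Mfap4 goes from 8.73 and 9.67% to 34.4 and 35.8%.

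Ratios of 2 genes within a library do not depend on its size factor, but their absolute size depends on the transcript length used, so they are read across times. The ratio of Fbln2 to Fbln1, per kb, was 53.3 and 42.7 on day 0, 3.04 and 3.07 on day 7, 1.18 and 1.20 on day 14, and 2.04 and 1.79 on day 21. The excess of Fbln2 over Fbln1 was thus smaller at every later time than on day 0, least on day 14 and larger again on day 21. With median transcript lengths it was 5.24 and 5.35 on day 14. Efemp1 per Efemp2 rose from 0.203 and 0.189 on day 0 to 1.66 and 1.54 on day 7, 2.12 and 1.505 on day 14, and 1.81 and 2.19 on day 21. Fbn2 per Fbn1 was 0.000103 and 0.000147 on day 0, 0.00564 and 0.00505 on day 7, 0.0187 and 0.0308 on day 14, and 0.0133 and 0.0205 on day 21. With the median annotated transcript of each gene in place of the longest, day 14 gave 0.264 and 0.437. That median is 640.5 bases for Fbn2 and 9847 for Fbn1, against longest transcripts of 11041 and 11971 bases. Fbn2 was below Fbn1 in every library by either length. Eln per Fbn1 was 0.242 and 0.141 on day 0, 0.166 and 0.140 on day 7, 0.450 and 0.477 on day 14, and 0.235 and 0.330 on day 21. Day 14 stood above all others in that ratio. The ratios are not corrected for the trend of change with transcript length, a slope of -0.38 from day 0 to day 14. The longest transcripts of Eln and Fbn1 have 3853 and 11971 bases. With the length and GC trend removed the day 14 change of Fbn1 was log2 -2.55 in place of -3.33. The part of that trend in the ratio was not tested. The assembly factors outnumbered Eln at every time. Fbln5 per Eln was 2.84 and 4.79 on day 0 and between 4.79 and 6.59 later. Days 0 and 21 overlapped in that ratio, with their second libraries both at 4.79. Efemp2 per Eln was 6.19 and 9.46 on day 0 and between 13.2 and 23.5 later. Mfap5 per Mfap4 was 0.111 and 0.102 on day 0, 0.0711 and 0.0749 on day 7, 0.0819 and 0.103 on day 14, and 0.0578 and 0.0523 on day 21. The ratios were not tested.

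The genes whose courses most resembled those of the members were listed by the root mean square difference of centred log2 values over the 8 libraries, among 10764 genes with a mean of at least 50 normalized counts. The gene nearest to Fbln2 was the fibrillar collagen gene Col5a1 (0.08 log2 units), and Col5a1 was also nearest to Fbn1 (0.15), followed by the fibronectin gene Fn1 (0.16). For Fbln1 the nearest were Gli2 (0.07), a transcription factor of Hedgehog signalling, and the fibulin gene Fbln7 (0.14). Eln lay nearest to Runx1 (0.21), Efemp1 to Tmem119 (0.17), Fbn2 to Nmb (0.21), Mfap4 to Arxes1 (0.09), Fbln5 to Tm9sf4 (0.08), Efemp2 to Fdft1 (0.06) and Mfap5 to Aarsd1 (0.07). With 8 libraries in 4 times such likeness is a description only.

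Genes that act with elastic fibres were taken from 6 lists written from general knowledge, with 63 genes in the table and 58 tested. At day 7, 26 were higher and 18 lower, on day 14, 21 higher and 28 lower, and on day 21, 27 higher and 18 lower. As given above, all tested genes were called higher and lower in 27.5 and 27.9% of cases on day 7, 35.2 and 35.6% on day 14, and 29.8 and 29.5% on day 21. The median log2 fold change of the 58 genes was 0.26, -0.22 and 0.26, and that of all tested genes was -0.01, 0.00 and 0.00. Cross-linking genes were on the low side. Of 7, 5 were lower and 1 higher on day 7, all 7 were lower on day 14 and 5 were lower on day 21, with medians of -0.83, -1.20 and -0.63. Loxl2, a lysyl oxidase homologue, fell from 16558 ± 161 to 3837 ± 27.0 normalized counts by day 7 (log2 -2.11 ± 0.11, adjusted p = 1.80e-08), and Fkbp10, a tropoelastin and collagen chaperone, from 15216 ± 581 to 4554 ± 411 (log2 -1.74 ± 0.10). Loxl4 (log2 -1.56 ± 0.13) and Loxl3 (log2 -0.83 ± 0.10) fell too. Lox, the chief elastin cross-linker, stood at 59839 ± 964 and 54889 ± 473 (log2 -0.12 ± 0.14, adjusted p = 0.461).

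Of 21 other microfibril-associated genes tested, 9 were higher and 7 lower on day 7, 6 and 9 on day 14, and 10 and 5 on day 21, shares read against the same background. Adamtsl2, a secreted protein that binds fibrillin 1, rose from 470.5 ± 37.2 normalized counts to 6182 ± 428 on day 7 (log2 3.71 ± 0.12, adjusted p = 2.55e-10) and 10042 ± 1070 on day 14. Thsd4, which promotes microfibril assembly, had 37 reads on day 7 against 4 on day 0, a ratio of 8.42 (95% counting interval 3.03 to 32.5). Among genes of latent TGF-beta binding proteins, Ltbp1 went from 4285 ± 85.8 to 788 ± 16.7 on day 7 (log2 -2.44 ± 0.12) and Ltbp2 from 2259 ± 370 to 439 ± 26.5 (log2 -2.35 ± 0.19), whereas Ltbp3 stood at 7690 ± 231 and 7870 ± 581 (log2 0.03 ± 0.14, adjusted p = 0.859). On day 14 all 3 were lower than on day 0, with Ltbp1 at log2 -3.47, Ltbp2 at -2.87 and Ltbp3 at -1.09 (adjusted p = 1.72e-05 for Ltbp3). Ltbp4 went the other way. It was higher on day 7 (log2 0.71 ± 0.20, adjusted p = 0.00790) and day 21 (log2 0.70 ± 0.20, adjusted p = 0.00829). On day 14 Ltbp4 did not pass the test (log2 0.23 ± 0.20, adjusted p = 0.296). The fibrillin-binding proteoglycan gene Vcan was 12.2-fold lower on day 14 (log2 -3.61 ± 0.14, adjusted p = 5.11e-10). Other proteoglycan genes of the list did not follow it. On day 14 Dcn was 5.66-fold higher (log2 2.50 ± 0.14, adjusted p = 1.43e-08) and Bgn did not pass the test (log2 -0.17 ± 0.18, adjusted p = 0.423). Emilin1, an elastic fibre glycoprotein, did not pass the test on day 7 (log2 0.27 ± 0.12, adjusted p = 0.0736) and was lower than day 0 on day 14 (log2 -0.42 ± 0.12, adjusted p = 0.00673). The fibulin gene Fbln7, 1 of the 2 other fibulin family genes in the table and the only one of them with enough reads to test, rose from 54.0 ± 3.16 to 311 ± 11.8 by day 7 (log2 2.50 ± 0.20, adjusted p = 5.74e-07).

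Genes for proteases that can cut elastin or microfibrils were mostly higher, 8 of 10 tested with 0 lower on day 7, 8 with 1 lower on day 14, and 9 with 1 lower on day 21, with medians of 1.34, 1.49 and 1.68. Of all tested genes, 27.5% were called higher and 27.9% lower on day 7, 35.2 and 35.6% on day 14, and 29.8 and 29.5% on day 21. The medians of all tested genes were -0.01, 0.00 and 0.00. These shares are the background for the counts of each list in this paragraph. Mmp3 (stromelysin 1) rose from 5830 ± 736 normalized counts to 48220 ± 3736 on day 7 (log2 3.05 ± 0.17, adjusted p = 2.58e-08), and cathepsin S, Ctss, from 39.3 ± 7.22 to 486 ± 102 (log2 3.59 ± 0.21, adjusted p = 3.01e-08). Macrophage elastase, Mmp12, had 7.17 and 7.84 normalized counts on day 0 and 21.4 to 29.2 later, and Mmp9 went from 2.25 ± 1.33 on day 0 to 114 ± 22.2 on day 14, a read ratio of 45.3 (95% counting interval 19.1 to 141). Macrophages also express Ctss, Mmp9 and Mmp12, and the macrophage marker sum given above rose over the same times. Its part in these 3 values, and in the other counts and values of this paragraph, was not tested. Inhibitor genes went both ways on day 7, 3 higher and 3 lower of 7. Timp3, which is bound to the matrix, was 5.03-fold lower on day 14 (log2 -2.33 ± 0.14), Cst3 (cystatin C) rose 13.8-fold (log2 3.79 ± 0.14), and Timp4, with 0 reads on day 0, was at least 53.1-fold higher on day 14 against a floor of 3 reads over the group. Among 12 integrin and elastin receptor genes 4 were higher and 3 lower on day 7, and 3 higher and 8 lower on day 14. Itgav, a subunit of fibrillin-binding integrins, fell 6.48-fold by day 14 (log2 -2.70 ± 0.12, adjusted p = 2.24e-09), while Itga8 rose from 12.1 ± 1.36 to 430.3 ± 61.5 (log2 5.04 ± 0.17, adjusted p = 1.97e-10).

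**Figure D4:**
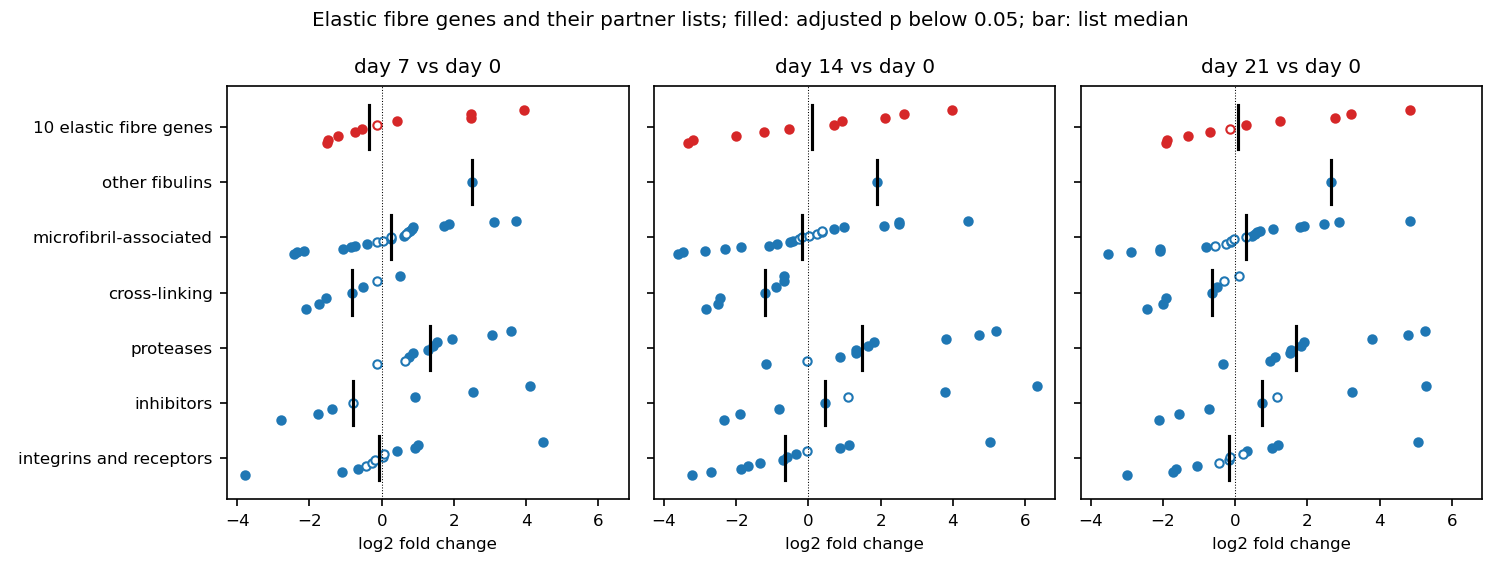
Log2 fold change against day 0 at days 7, 14 and 21 for the 10 elastic fibre genes and 6 partner lists; each point is a gene, filled where adjusted p is below 0.05, and bars are list medians. Cross-linking genes lie below 0 in median at all 3 times (-0.83, -1.20 and -0.63) and proteases above it (1.34, 1.49 and 1.68).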

How the data were processed

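The deposited file holds a signal per gene, the authors' normalized gene counts, for 24015 symbols in 8 libraries. Per the submitters' processing notes TopHat2 2.0.11, HTSeq 0.6.1 and DESeq were used with mm9, with neither annotation nor strand named there. Every value of the deposited signal was a whole multiple of 1 read (within 0.01 reads, 100% of values). Values were log2-transformed after adding 1, genes with at least 10 in at least 2 libraries were tested (13527), and the 4 times were fitted together with limma 3.58.1 (trend, 4 residual degrees of freedom), with Benjamini-Hochberg adjustment over tested genes and calls below 0.05. Alternatives were another pseudocount, filter, scaling (TMM or upper quartile), edgeR 4.0.16 and DESeq2 1.42.0 on recovered reads, a replicate block, a length and GC correction, and leaving out each library. The fit was tested on simulated data. Scripts ran in R 4.3.3 and Python 3.11.15, with figures by matplotlib 3.10.9. On recovered reads edgeR called 7591, 9622 and 8056 of all genes tested on days 7, 14 and 21 against day 0.

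The members and gene lists were chosen with earlier results of these data known. All 10 members are named in every comparison, and partner genes are drawn, separately in each comparison, from each list's 4 called genes of largest change and at most 2 uncalled genes, by mean level. Promoters shown are those of the members with the widest range of means among the 6 with a matched window. Transcript lengths are from GENCODE M21 on GRCm38, matched by symbol for 98.4% of genes, so no coordinates were set against mm9. In that annotation exons of Efemp2 overlap Mus81 and those of Mfap4 overlap Mapk7 on the other strand, at 189 to 230.2 and 529 to 852 normalized counts, and Eln, Fbn1 and Fbn2 each overlap an antisense gene model not in the table. Reads of such pairs cannot be told apart without strand. Intervals cover counting error only.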

Additional observations from a re-analysis of the deposited data

Results flagged for a closer look

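Mfap5 lay below day 0 in both libraries of day 7 and above it in both libraries of days 14 and 21. The difference between the times was itself tested with limma, and Mfap5 was higher at day 14 than at day 7 by 0.84 on the log2 scale (adjusted p = 4.21e-05) and at day 21 than at day 7 by 0.42 (adjusted p = 0.0153). The dip at day 7 did not pass the test (log2 -0.12, adjusted p = 0.274), but it did once a length and GC trend was removed (-0.22, adjusted p = 0.0257). Leaving out 1 library of day 7 ended the second of these calls, at 0.37 without the first (adjusted p = 0.193) and 0.48 without the second (adjusted p = 0.0920).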

How the results depend on the processing

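Over 18 alternatives and 6 comparisons, 1006 of 1080 values of the members kept their direction and side of the threshold, 52 lost a call, 14 gained one and 8 changed sign, none of them called in the fit reported. The sign changes, all with adjusted p above 0.2, were in day 14 against day 7 for Fbn2 without the second day 14 library (-0.14), Efemp1 with the length and GC trend removed (-0.25) or without the first day 14 library (-0.043), and Efemp2 with the trend removed (-0.075) or without the first day 7 library (-0.042), and in day 21 against day 7 for Eln without the second day 21 library (-0.23) and Fbln5 with TMM scaling (-0.013) or without the second day 21 library (-0.15). Leaving out 1 library at a time, these values reached at most 0.23 for Fbn2, 0.42 for Efemp1 and 0.095 for Efemp2 in the first comparison, and 0.58 for Eln and 0.20 for Fbln5 in the second. With the length and GC trend removed, 3 members were called between days 14 and 7. For day 21 against day 7, testing all genes without a filter called 739 in place of 1182, and 12 in place of 21 partners, with 18079 genes tested in place of 13527. Leaving out 1 library gave 2302 to 5735 of all genes for day 21 against day 14, 4 to 10 members and 19 to 36 partners, and for day 21 against day 7 it gave 262 to 2188 of all genes, 1 to 5 members and 5 to 24 partners. Using the median in place of the longest transcript kept the place of 2, 5, 5 and 4 of 10 members in the order by level per kb at days 0, 7, 14 and 21. Same-numbered libraries did not deviate together (correlations of -0.04 to 0.07 between times). With the replicate number as a block, 949 of all genes were called for day 21 against day 7, and among members the calls of Eln (adjusted p = 0.0550) and Mfap4 (adjusted p = 0.0595) between days 21 and 14 were lost, the only calls of members it changed. TMM and upper-quartile scaling moved the median of all genes by at most 0.07 on the log2 scale. For Fbn2, the 8 reads at day 0 limit the precision of its fold.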
